A study of Mus musculus with 8 samples.

Results

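The keratins of simple epithelia, the surface antigen gene Ly6d and genes that mark the epithelium of bile ducts were followed in the liver and subcutaneous fat of MKRN1-null and WT mice on a high-fat diet (HFD). The group held 9 genes, Ly6d, Krt7, Krt8, Krt18, Krt19, Krt23, Epcam, Sox9 and Cd24a, of 24462 gene symbols in the files. The genes were taken by symbol and chosen by their FPKM in MKRN1-null against WT livers, together with their known roles. Their liver values in the 2 genotypes therefore describe that difference and are given without a test.

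The 8 libraries of poly(A) RNA came from 2 mice of either genotype per tissue. All mice were male C57BL/6 animals placed on the HFD at 6 weeks of age, and the labels give 19 weeks of HFD and an age of 24 weeks. The null allele was present in the whole body, the WT mice were littermates from heterozygous crosses, and nothing states whether liver and fat of one number came from one mouse. Values are FPKM (fragments per kilobase of transcript, scaled to the fragments mapped in the library, a level per length), summed over the transcripts of a gene. The WT livers had 9.42 and 10.1 FPKM of Mkrn1 (replicates 1 and 2) and the MKRN1-null livers 2.86 and 2.21. In fat, Mkrn1 stood at 16.8 and 19.3 FPKM in WT against 4.58 and 2.90 in MKRN1-null libraries, so each library labelled null lay below each WT library. The aligned bases amounted to 6.05 to 7.46 Gb in the livers and 5.72 to 9.24 Gb in fat, which is also the mean coverage of a base in a transcript at an FPKM of 1. One library stood apart. MKRN1-null fat replicate 2 held skeletal muscle RNA, with a sum of 107952 FPKM over 11 muscle genes against 37.6 to 308 in the other fat libraries.

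Keratins are the intermediate filament proteins of epithelia and assemble only as pairs of a type I and a type II chain. Hepatocytes carry a single pair, keratin 8 (type II, Krt8) and keratin 18 (type I, Krt18), whereas cholangiocytes, the cells that line bile ducts, also carry keratin 7 (Krt7) and keratin 19 (Krt19). Hepatocyte keratins are known to accumulate in fatty and toxic liver injury, and duct-like cells multiply at the edge of the portal tract in many chronic liver diseases.

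The promoters of Krt8 and Krt18, the pair with the highest levels in liver, and of Krt7 and Epcam, which differ from them in level by far, are shown so that their start regions can be compared. RefSeq promoters (build GRCm38.p6, from 250 bases before to 50 bases after the annotated start, read along the gene's strand) were held for 5 of the 9 genes, Krt7, Krt8, Krt18, Krt23 and Epcam. They are printed in lower case from 5′ to 3′. Capitals mark matches on either strand to the letters TATAAA, the core of the TATA box, or GGGCGG, known as the GC box. The windows were also searched for the letters CCAAT, bound by the factor NF-Y, and for TGANTCA, the AP-1 motif, which do not overlap the marked matches and occur in none of the 5 windows. Krt8 lies at chr15:102004293-102004592 on the minus strand, Krt18 at chr15:102027966-102028265 on the plus strand, Krt7 at chr15:101412153-101412452 on the plus strand and Epcam at chr17:87635729-87636028 on the plus strand.
Krt8: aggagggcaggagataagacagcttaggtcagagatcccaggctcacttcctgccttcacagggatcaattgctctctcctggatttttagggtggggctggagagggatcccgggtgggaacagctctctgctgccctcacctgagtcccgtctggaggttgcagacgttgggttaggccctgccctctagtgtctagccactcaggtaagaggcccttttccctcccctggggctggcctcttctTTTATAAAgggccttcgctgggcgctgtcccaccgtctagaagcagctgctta
Krt18: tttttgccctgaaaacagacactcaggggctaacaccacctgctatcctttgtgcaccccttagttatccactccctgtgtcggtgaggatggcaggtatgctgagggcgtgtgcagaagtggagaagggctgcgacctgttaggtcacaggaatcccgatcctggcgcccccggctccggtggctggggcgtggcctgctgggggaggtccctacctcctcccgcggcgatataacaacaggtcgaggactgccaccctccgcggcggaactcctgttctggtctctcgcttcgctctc
Krt7: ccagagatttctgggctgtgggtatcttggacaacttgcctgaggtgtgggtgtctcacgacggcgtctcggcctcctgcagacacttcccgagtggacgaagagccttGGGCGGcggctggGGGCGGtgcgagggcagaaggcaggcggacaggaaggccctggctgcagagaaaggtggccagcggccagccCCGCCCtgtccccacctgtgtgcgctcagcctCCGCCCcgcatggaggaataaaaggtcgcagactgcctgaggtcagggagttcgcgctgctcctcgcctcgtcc
Epcam: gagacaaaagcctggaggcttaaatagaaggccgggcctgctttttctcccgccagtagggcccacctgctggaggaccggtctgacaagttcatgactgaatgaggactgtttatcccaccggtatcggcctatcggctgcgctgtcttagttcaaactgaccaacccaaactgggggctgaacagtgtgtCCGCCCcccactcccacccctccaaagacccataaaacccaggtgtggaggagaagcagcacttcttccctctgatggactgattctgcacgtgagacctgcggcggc

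The Krt8 window held the letters TTTATA and TATAAA, which overlap in 1 run at the annotated start and count as 2 matches on opposite strands. The TATA letters were found in 13.6% of 32851 RefSeq promoters of the same length. Krt7 held 4 GC boxes and Epcam 1, and 35.7% of all promoters held at least 1. The Krt18 and Krt23 windows held none of the motifs searched, of which the CCAAT letters occur in 37.4% and the AP-1 letters in 7.81% of all promoters. GC content was 66.3% in Krt7, 61.3% in Krt18, 58.0% in Krt8, 57.0% in Epcam and 53.0% in Krt23. A match of letters is a description of the sequence and not a bound site.

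**Figure D1:**
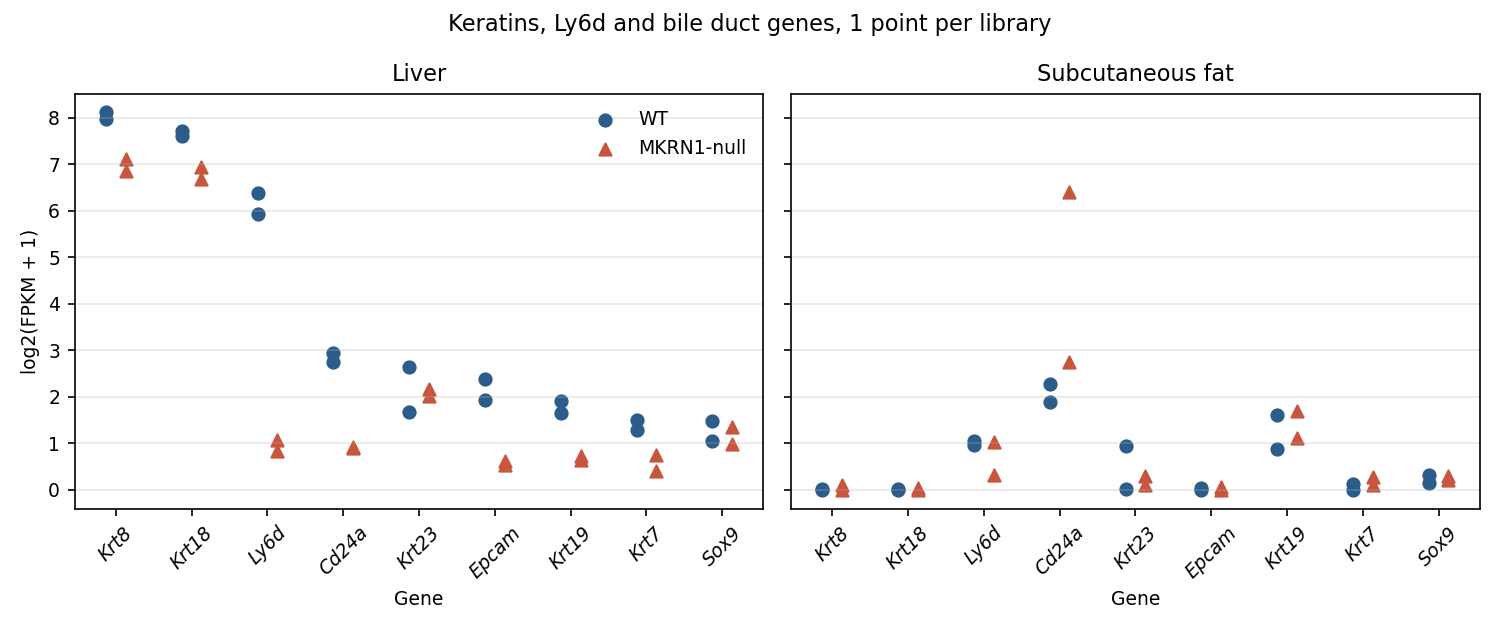
Level of each gene as log2(FPKM + 1) on the y axis in liver (left) and subcutaneous fat (right), with 1 point per library, circles for WT and triangles for MKRN1-null. In liver the MKRN1-null points lie below both WT points for 7 of the 9 genes and overlap them for Krt23 and Sox9, and in fat a single MKRN1-null library stands out, for Cd24a at 83.3 FPKM.

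In liver 7 of the 9 genes were lower in both MKRN1-null libraries than in both WT libraries, and Krt23 and Sox9 overlapped. The same order was found for 57.6% of the 10808 genes tested and the opposite order for 11.8%. All 9 genes passed the filter of an FPKM of at least 1 in at least 2 of the 4 livers. Krt7, Krt19, Epcam and Cd24a did so through the WT livers alone and therefore had to be lower in the MKRN1-null livers. The median difference of the 9 genes was −1.06 on the log2(FPKM + 1) scale, and that of all genes tested was −0.17. A scaling of the libraries by the median of ratios moves the median of all genes to 0.0044, so differences are also given relative to it. On bulk RNA, fewer cells of a type and less RNA per cell cannot be told apart.

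**Figure D2:**
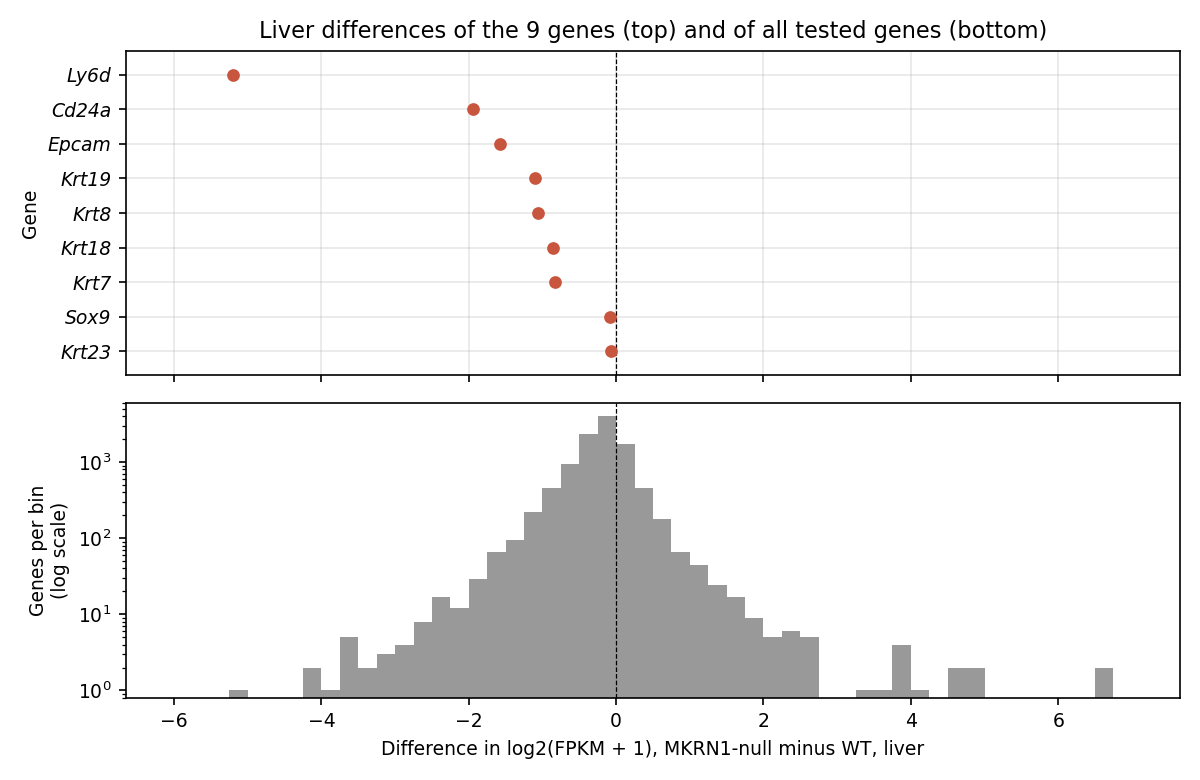
Difference in log2(FPKM + 1) between MKRN1-null and WT livers on the x axis, for each of the 9 genes (top) and as a histogram of all 10808 genes tested (bottom, genes per bin of 0.25 on a log scale). Ly6d at −5.20 is the lowest of all, Cd24a and Epcam lie in the left tail, and Krt23 and Sox9 lie near 0 beside the bulk of the genes.

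Ly6d had the lowest difference of all 10808 genes. It encodes a small GPI-anchored surface protein of the Ly6 family, known as a marker of early B lineage cells and of squamous epithelia. The WT livers had 82.9 and 60.05 FPKM and the MKRN1-null livers 1.11 and 0.791. The WT livers were thus high and the MKRN1-null livers near 1 FPKM, with no overlap. The mean was 71.5 ± 16.2 FPKM in WT against 0.952 ± 0.227 in MKRN1-null livers (SD, n = 2), a level in MKRN1-null livers of 1.33% of WT. The difference was −5.20 on the log2(FPKM + 1) scale (standard error 0.18), and −5.03 relative to the median of all genes. By its mean in WT liver it ranked 996 of all gene symbols from the highest.

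The gene lies at chr15:74762056-74763567 (mm10, minus strand) with 3 exons, and each exon showed the same picture. The middle exon was covered 755 and 714 times per base in the WT livers and 9.87 and 12.01 times in the MKRN1-null livers. The level in MKRN1-null livers was 1.02 to 1.49% of WT over the 3 exons. The reading therefore does not rest on 1 exon. Exon coverage, here and below, was not scaled to the bases aligned. These were 6.05 and 7.46 Gb in WT livers and 6.28 and 6.53 Gb in MKRN1-null livers. Shares by exon thus tend to lie below shares in FPKM.

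Ly6d sits in a cluster of related genes on chromosome 15, most of which are silent in liver. Within 100 kb there were 15 other genes, and 13 of them stayed under 1 FPKM in every liver. They include Slurp1, Psca and Ly6g6g, which were listed at 0 in all 4 livers. The 1 neighbour that passed the filter was Them6, a thioesterase superfamily gene, with 6.05 and 5.51 FPKM in WT against 1.98 and 1.55 in MKRN1-null livers. It fell by 1.297 on the log2 scale (standard error 0.12, adjusted p = 0.0117, limma with Benjamini-Hochberg adjustment over all genes tested). Lynx1, a Ly6 family gene of nicotinic receptor modulation, had 1.02 and 0.693 FPKM in WT against 0.221 and 0.214 in MKRN1-null livers and was not tested.

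Markers of the cell types known to express Ly6d were low in these livers. The B cell markers summed to 8.53 and 5.21 FPKM in WT against 2.96 and 4.02 in MKRN1-null livers over 8 genes. Ighm, also on the list, had no values. Of these markers 5 of 8 were lower in both MKRN1-null livers, an order that 52.8% of the symbols above 0 in a liver had, and no more than 3 of the 8 reached 1 FPKM in any liver. Blnk, an adaptor gene of B cell receptor signalling and the highest of them, had 2.88 and 1.76 FPKM in WT against 0.835 and 0.822 in MKRN1-null livers. It passed the filter through the WT livers alone, and so could not be tested without either of them. Its adjusted p of 0.0424 (limma) was not kept without either MKRN1-null liver, nor after median-of-ratios scaling (0.0680). The keratinocyte markers summed to 0.943 to 1.22 FPKM in the 4 livers, with 7 or 8 of 10 genes at 0. The part of either cell type in the Ly6d values was not tested.

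The remaining Ly6 family was followed in a list of 36 genes without Ly6d. All gene lists were drawn up with earlier results of these data known, so their counts are a description. At an adjusted p under 0.05, 16.9% of all liver genes were lower and 2.52% higher in MKRN1-null livers, and of the 6 list genes that passed the filter 4 fell and 0 rose. Their median was −0.75, against −0.17 for all genes. Gpihbp1, which anchors lipoprotein lipase on capillary endothelium, was at 48.2 and 32.4 FPKM in WT against 21.2 and 20.2 in MKRN1-null livers, a fall of 0.90 (adjusted p = 0.0413). Ly6a, the stem cell antigen Sca-1, fell by 0.86 (adjusted p = 0.0190). Ly6e, the most abundant of the list in liver, had 177 and 175 FPKM in WT against 106 and 93.7 in MKRN1-null livers and fell by 0.81 (adjusted p = 0.0150). Ly6c2, a monocyte antigen that passed the filter through the WT livers alone, fell by 0.69 (adjusted p = 0.0399). Ly6a and Ly6c2 have near-identical relatives, so their reads may have been divided between copies. The count fell to 0 without MKRN1-null liver replicate 2, to 1 without replicate 1, to 2 without WT liver replicate 1 or after median-of-ratios scaling, and to 1 after quantile normalization.

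Krt8 and Krt18 were the abundant keratins of the liver and stood at about the same share of WT. Krt8 had 276.5 and 250.8 FPKM in WT livers and 136.8 and 115.1 in MKRN1-null livers. Krt18 had 194.5 and 209.1 FPKM in WT livers and 121.1 and 101.7 in MKRN1-null livers. In neither gene did the genotypes overlap, and replicates lay closer to each other than to the other genotype. The level in MKRN1-null livers was 47.8% of WT for Krt8 (difference −1.06, standard error 0.12) and 55.2% for Krt18 (difference −0.86, standard error 0.12). Relative to the median of all genes the differences were −0.89 and −0.68.

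All 9 exons of Krt8 (chr15:101996711-102004342, mm10, minus strand) lay at 42.9 to 49.8% of the WT coverage in MKRN1-null livers. All 7 exons of Krt18 (chr15:102028216-102032026, plus strand) lay at 50.5 to 54.7%. Coverage was not scaled to depth, and the share of WT by FPKM was 55.2% for Krt18. The share of WT was thus nearly even over the exons of either gene. Both genes have many processed pseudogenes with near-identical sequence, and how such reads were assigned is not given in the sources used here.

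**Figure D3:**
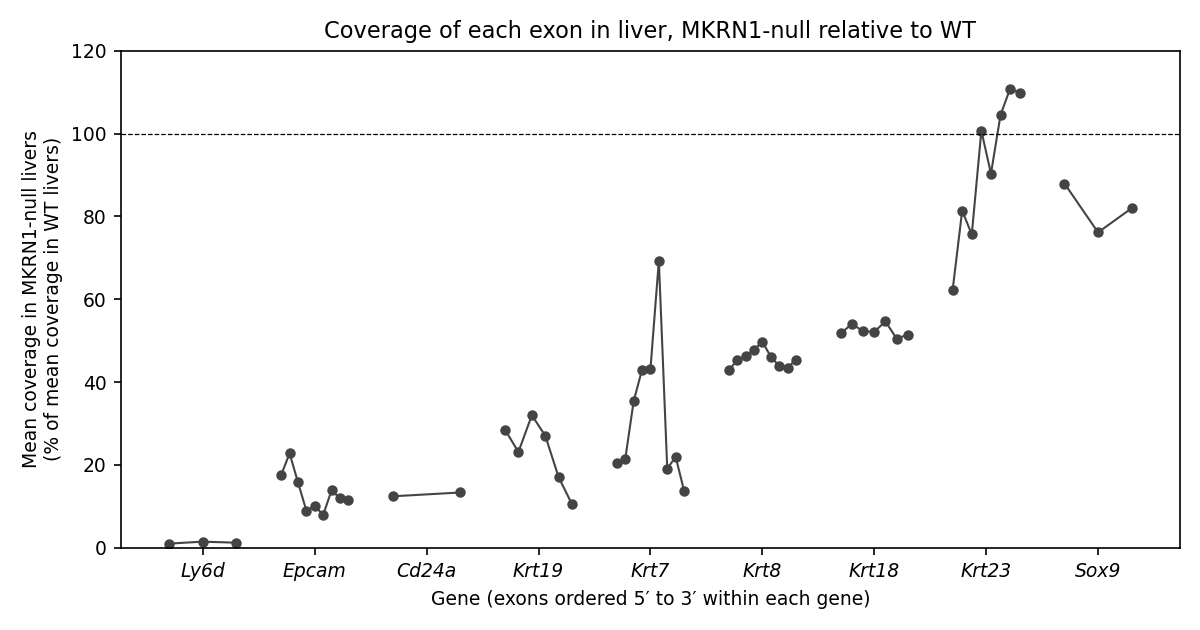
Mean coverage of each exon in MKRN1-null livers as a percentage of its mean coverage in WT livers (y axis, linear, dashed line at 100%), with the exons of each gene joined from 5′ to 3′ and exons with a mean WT coverage of at most 1 left out. Ly6d lies at 1.02 to 1.49%, Krt8 and Krt18 form flat lines between 42.9 and 54.7%, and Krt23 spans 62.2 to 111%. Coverage is not scaled to the bases aligned in each library.

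The ratio of Krt8 to Krt18 in FPKM was 1.42 and 1.20 in WT livers and 1.13 in both MKRN1-null livers. Transcripts of the type II gene were thus slightly more abundant in each liver, and the protein chains were not measured. Krt8 and Krt18 made up 97.7 to 98.5% of the FPKM of all 54 keratin genes in each liver, so the total of keratin transcripts followed the pair, with 481.9 and 466.9 FPKM in WT against 263.5 and 221.5 FPKM in MKRN1-null livers. The pair took 0.0877 and 0.0838% of all FPKM in WT livers and 0.0460 and 0.0389% in MKRN1-null livers. Of 15 hepatocyte markers 1, the transthyretin gene Ttr, was lower in both MKRN1-null livers and 10 were higher in both. Of all genes tested 57.6% were lower in both and 11.8% higher in both. Alb, the albumin gene, stood at 39904 and 33787 FPKM in WT against 39858 and 42772 in MKRN1-null livers. Of the 15 markers 3 rose, 0 fell and the median was 0.21, where 2.52% of all liver genes rose and 16.9% fell.

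Krt8 and Krt18 lie head to head on chromosome 15, with 23874 bases between them and their transcription pointing apart. Within 100 kb of the pair 6 other genes were annotated and 3 passed the filter. Eif4b, a translation initiation factor gene, differed by 0.29 (adjusted p = 0.145) and Tns2, a focal adhesion gene, by 0.20 (adjusted p = 0.343). Spryd3, the third, fell by 0.61 (adjusted p = 0.0191). The keratin genes Krt4, Krt79 and Krt78 beyond Krt8 stayed under 1 FPKM in each liver.

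Krt23, a type I keratin known to respond to stress in liver, did not separate the genotypes. It had 5.22 and 2.21 FPKM in WT livers and 3.49 and 3.03 in MKRN1-null livers. The WT libraries lay on both sides of the MKRN1-null libraries. The mean in MKRN1-null livers was 87.8% of WT, and the difference of −0.07 (standard error 0.32) turned to 0.094 after median-of-ratios scaling, to 0.16 after quantile normalization and to 0.41 without WT replicate 1. No exon of its 8 (chr11:99477973-99493110, minus strand) was lower in both MKRN1-null livers, and the share of WT ranged from 62.2 to 111% over them.

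None of the 49 other keratin genes passed the filter in liver. Of these 9 were above 0 in any liver, and 3 of the 9 (33.3%) were lower in both MKRN1-null livers, against 52.8% of all symbols above 0 in a liver. Krt10, an epidermal keratin, was the highest by mean at 0.774 and 0.682 FPKM in WT against 0.732 and 0.755 in MKRN1-null livers. No keratin thus stood beside the pair in level in either genotype.

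The duct keratins Krt7 and Krt19 were present at far lower levels than the pair. Krt7 had 1.83 and 1.45 FPKM in WT livers and 0.670 and 0.320 in MKRN1-null livers. Krt19 had 2.78 and 2.15 FPKM in WT livers and 0.648 and 0.562 in MKRN1-null livers. The genotypes did not overlap in either gene. The level in MKRN1-null livers was 30.2% of WT for Krt7 (difference −0.83, standard error 0.16) and 24.5% for Krt19 (difference −1.10, standard error 0.13). At such levels the pseudocount shrinks the log2 difference, which was −1.60 for Krt7 and −1.86 for Krt19 with a pseudocount of 0.1.

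Over the 9 exons of Krt7 (chr15:101412403-101427806, plus strand) the share of WT ranged from 13.8 to 69.3%, and 7 of the 9 were lower in both MKRN1-null livers. The 126-base sixth exon gave the highest share, with coverage of 10.7 and 10.6 in WT against 12.4 and 2.41 in MKRN1-null livers. All 6 exons of Krt19 (chr11:100140811-100145926, minus strand) were lower in both MKRN1-null livers, at 10.5 to 32.0% of WT. The shares scattered more over the exons of Krt7 than over those of Krt8, whose exons are covered far more deeply.

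Epcam, which encodes the epithelial cell adhesion molecule of duct and other simple epithelia, and Cd24a, a mucin-like surface antigen gene of duct, progenitor and blood cells, stood at a still smaller share of WT. Epcam had 4.25 and 2.81 FPKM in WT livers and 0.444 and 0.545 in MKRN1-null livers. Cd24a had 6.70 and 5.76 FPKM in WT livers and 0.853 and 0.883 in MKRN1-null livers. Both MKRN1-null livers lay far below both WT livers in each gene. The level in MKRN1-null livers was 14.0% of WT for Epcam (difference −1.58, standard error 0.18) and 13.9% for Cd24a (difference −1.95, standard error 0.11). Their differences ranked 125 and 59 from the lowest of all genes.

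Of the 9 exons of Epcam (chr17:87635979-87651127, plus strand) that were covered in liver, all were lower in both MKRN1-null livers, at 7.92 to 22.8% of WT. The first annotated exon of 94 bases had no coverage in any liver. Both exons of Cd24a (chr10:43579169-43584265, plus strand) stood at 12.4 and 13.4% of WT. Cd24a has near-identical retrocopies elsewhere in the genome, so the assignment of its reads is uncertain.

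Sox9, the transcription factor of duct fate and of liver progenitor cells, did not follow the other duct genes. It had 1.06 and 1.77 FPKM in WT livers and 1.56 and 0.980 in MKRN1-null livers. The genotypes overlapped, with 1 library high and 1 low in each. The mean in MKRN1-null livers was 89.8% of WT (difference −0.09, standard error 0.21), and the sign turned after median-of-ratios scaling (0.034), after quantile normalization (0.23) and without WT replicate 2 (0.13). Its 3 exons (chr11:112782210-112787757, plus strand) stood at 76.1 to 87.9% of WT.

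Within the 4 livers the 7 genes that separated the genotypes kept close step. This largely follows from the choice, since genes that part the same 4 libraries by genotype must rise and fall together. As a description over 4 libraries that differ mainly by genotype, the Pearson correlation of log2(FPKM + 1) was 0.999 between Ly6d and Cd24a, 0.984 between Krt8 and Krt18, 0.974 between Krt7 and Krt19 and 0.990 between Epcam and Cd24a. It was 0.167 between Ly6d and Krt23 and 0.0281 between Epcam and Sox9. The sum of Krt7, Krt19, Epcam, Sox9 and Cd24a was 16.6 and 13.9 FPKM in WT against 4.18 and 3.29 FPKM in MKRN1-null livers.

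The wider bile duct epithelium was followed in 19 genes that are not among the 9. The list was drawn up with earlier results of these data known. Its counts therefore describe these livers and are no independent support. Each of the 19 was above 0 in a liver and lower in both MKRN1-null livers than in both WT livers, against 52.8% of all 17317 symbols above 0 in a liver. Of the 7 that passed the filter 6 fell and 0 rose, with a median of −0.93, where 16.9% of all liver genes fell. Of these 7, Pkhd1, Cldn7 and Bicc1 passed through the WT livers alone and so had to be lower in MKRN1-null livers.

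Spp1 encodes osteopontin, a secreted phosphoprotein of cholangiocytes that macrophages and injured hepatocytes also make. It had 242 and 201 FPKM in WT livers and 34.4 and 29.7 in MKRN1-null livers. The groups were far apart, and Spp1 fell by 2.75 on the log2 scale (standard error 0.13, adjusted p = 0.00575, limma), with an adjusted p of at most 0.0254 when any 1 library was left out and of 0.112 with all 8 libraries in one fit.

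Tspan8, a tetraspanin gene of simple epithelia, had 4.90 and 3.40 FPKM in WT against 0.682 and 1.19 in MKRN1-null livers and fell by 1.41 (adjusted p = 0.0201). Bicc1, an RNA-binding protein gene of ciliated duct cells, fell by 1.12 (adjusted p = 0.0173), with 2.72 and 1.97 FPKM in WT against 0.542 and 0.508 in MKRN1-null livers. Cldn7, a tight junction gene, had 1.97 and 1.26 FPKM in WT against 0.343 and 0.380 in MKRN1-null livers and fell by 0.93 (adjusted p = 0.0268). In MKRN1-null livers Tspan8, Bicc1 and Cldn7 were thus near or under 1 FPKM.

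Pkhd1, the fibrocystin gene of primary cilia, fell by 0.57 (adjusted p = 0.0284), and Slc4a2, an anion exchanger gene of bicarbonate secretion, by 0.39 (adjusted p = 0.0372). Cftr, the chloride channel gene, had 0.183 and 0.118 FPKM in WT livers, and Sctr, the secretin receptor gene, had 0.511 and 0.462. Both were listed at 0 in the 2 MKRN1-null livers. The count of 6 fell to between 1 and 2 when any 1 of the 4 livers was left out, to 2 with a filter at 5 FPKM and to 3 after quantile normalization, and rose to 11 without a filter.

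**Figure D4:**
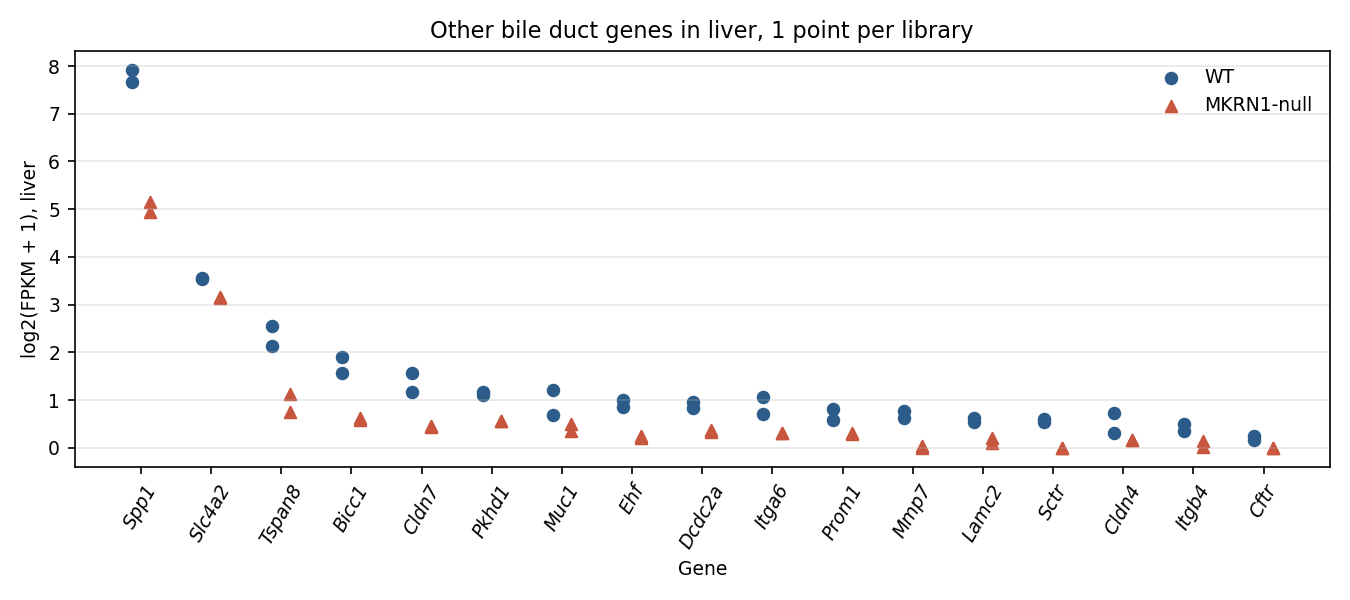
Level of 17 of the 19 other bile duct genes as log2(FPKM + 1) in the 4 livers, with 1 point per library, circles for WT and triangles for MKRN1-null, ordered by the mean of the WT livers. Each MKRN1-null point lies below both WT points of its gene, from Spp1 at 242 and 201 FPKM in WT to Cftr at 0.183 and 0.118 FPKM. The list was drawn up with earlier results of these data known.

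Markers of other cells that carry some of these genes are given beside them. The mesothelium, which also carries Krt7, Krt8, Krt18 and Krt19, had marker sums of 2.57 and 4.57 FPKM in WT against 2.33 and 0.189 in MKRN1-null livers over 5 genes, of which 3 (60%) were lower in both MKRN1-null livers, near the 52.8% of all symbols. Its most abundant marker Msln stood at 1.09 and 2.11 FPKM in WT against 0.782 and 0 in MKRN1-null livers (difference −0.93, adjusted p = 0.114), and passed the filter through the WT livers alone. Neutrophil markers, of cells that carry Cd24a, summed to 6.94 and 8.01 FPKM in WT against 4.52 and 4.73 in MKRN1-null livers, with 5 of 9 (55.6%) lower in both MKRN1-null livers, again near the share of all symbols. S100a9, a calgranulin gene and the highest of them in liver, fell by 0.49 (adjusted p = 0.0399), which did not pass with any 1 library left out (adjusted p from 0.0749 to 0.216). The intestinal markers, of an epithelium rich in Epcam, summed to 200 and 221 FPKM in WT against 197 and 131 in MKRN1-null livers, nearly all of it from Fabp2, and the 4 markers apart from Fabp2 and Lgals4 were at 0 in each liver. The part of these cells in the values of the 9 genes was not tested.

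Genes that act with keratin filaments were followed in a list of 18 linker, desmosome and other intermediate filament genes. Of the 14 that passed the filter 3 fell and 0 rose, near the 16.9% of all liver genes that fell, with a median of −0.28. Vim, the vimentin gene of mesenchymal cells, had 30.4 and 19.8 FPKM in WT against 10.8 and 8.68 in MKRN1-null livers and fell by 1.25 (adjusted p = 0.0290). Dsp, the desmoplakin gene that ties keratin to desmosomes, fell by 0.63 (adjusted p = 0.0349), and Des, the muscle filament gene desmin, by 0.51 (adjusted p = 0.0423). Vim and Des are not keratin partners of epithelia but filaments of mesenchyme and muscle. The count was 0 without WT replicate 1, without either MKRN1-null replicate and after quantile normalization, and 1 after median-of-ratios scaling.

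Krt8 and Krt18 are the scaffold of Mallory-Denk bodies, aggregates of hepatocytes in fatty liver disease, and 12 other genes linked to these bodies were followed. All 12 passed the filter, 5 fell and 0 rose, with a median of −0.59, where 16.9% of all liver genes fell. Hspb1, a small heat shock protein gene, had 63.1 and 77.3 FPKM in WT against 21.0 and 24.7 in MKRN1-null livers and fell by 1.58 (adjusted p = 0.0108). Tgm2, the transglutaminase gene that cross-links keratin 8, fell by 1.17 (adjusted p = 0.0145), from 83.8 and 67.3 FPKM to 32.0 and 33.6. Cryab, a small heat shock protein gene, fell by 0.88 (adjusted p = 0.0173) and Hspa1a, an inducible Hsp70 gene, by 0.67 (adjusted p = 0.0297). Sqstm1, the p62 protein of these bodies, fell by 0.60 (adjusted p = 0.0329). Ubb, a polyubiquitin gene, differed by −0.12 (adjusted p = 0.546). The count was 0 without MKRN1-null replicate 2, 1 without replicate 1 and 3 without WT replicate 2, without a filter and after either other scaling.

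Targets of YAP and TAZ, co-activators known to be active in duct cells, and genes of the Notch pathway, which drives duct fate, were followed next. Of 15 YAP and TAZ targets that passed the filter 7 fell and 1 rose, with a median of −0.58. Of all liver genes 16.9% fell and 2.52% rose. Of the 15 targets 1 passed the filter through the WT livers alone. Ccn2, the connective tissue growth factor gene, had 5.77 and 7.45 FPKM in WT against 1.61 and 1.66 in MKRN1-null livers and fell by 1.52 (adjusted p = 0.0108). Ccdc80, a matrix protein gene, fell by 1.63 (adjusted p = 0.0173) and Nt5e, the ectonucleotidase CD73, by 1.26 (adjusted p = 0.0312). Nuak2, a kinase gene, rose by 0.99 (adjusted p = 0.0266), with 3.04 and 4.04 FPKM in WT against 6.98 and 9.04 in MKRN1-null livers. The count of falls was 0 without MKRN1-null replicate 2, 1 without replicate 1 and 3 without WT replicate 1, with a filter at 5 FPKM and after quantile normalization.

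Of 7 Notch pathway genes that passed the filter 2 fell and 0 rose, with a median of −0.33, where 16.9% of all liver genes fell. Nrarp, a feedback inhibitor gene, fell by 0.64 (adjusted p = 0.0372) and Jag1, the ligand gene of bile duct formation, by 0.52 (adjusted p = 0.0320), and both passed the filter through the WT livers alone. Hes1, a direct Notch target, had 8.26 and 12.9 FPKM in WT against 17.9 and 14.4 in MKRN1-null livers (difference 0.59, adjusted p = 0.127). The count was 0 without WT replicate 1 or either MKRN1-null replicate, after either other scaling and with a filter at 5 FPKM, and 1 without WT replicate 2. Across all lists 39 genes were called in liver, 18 of them also after quantile normalization and 5 with all 8 libraries in one fit. Each kept its sign in every setting in which it was tested. For genes that passed the filter through the WT livers alone the filter largely fixed that sign, so it is no support. Of the 39, 26 passed after median-of-ratios scaling and 3 passed (Spp1 and the adipocyte markers Fabp4 and Cidec) without MKRN1-null liver replicate 2.

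Where the genes are expressed without the knockout was asked by setting the WT livers beside WT fat. The choice of the genes used the WT liver values but not those of fat, so the differences of the 9 genes are given as a description with no test. Over all 12782 genes tested by limma at an adjusted p under 0.05, 2289 (17.9%) were higher in WT liver and 7961 (62.3%) lower as deposited, but 4390 and 4387 after median-of-ratios scaling, and the median was −0.59. Krt8 exceeded fat by 8.04 on the log2(FPKM + 1) scale (standard error 0.10) and Krt18 by 7.65 (standard error 0.09). In WT fat Krt8 stood at 0.0120 and 0 FPKM and Krt18 at 0 and 0.0150, so that hardly a read of the pair was found there.

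Ly6d, with 1.06 and 0.958 FPKM in WT fat, was higher in WT liver by 5.15 (standard error 0.17). The MKRN1-null livers, at 1.11 and 0.791 FPKM of Ly6d, lay on both sides of the WT fat libraries. Epcam, at 0.0212 and 0 FPKM in WT fat, was higher in liver by 2.15 and Krt7, at 0 and 0.0827 FPKM, by 1.34. Sox9, at 0.1005 and 0.252 FPKM in WT fat, was higher in liver by 1.03.

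The other 3 genes were less distinct. Krt23, at 0.914 and 0.0134 FPKM in WT fat, was higher in liver by 1.68. Cd24a, at 2.72 and 3.86 FPKM in WT fat, was higher in liver by 0.76. Krt19, at 2.06 and 0.832 FPKM in WT fat, was higher in liver by 0.54, by 0.99 after median-of-ratios scaling and by 1.12 after quantile normalization. In each of the 9 genes both WT livers lay above both WT fat libraries. The genes were chosen by liver values, and each reached 1 FPKM in both WT livers. The share of all genes in this order was not computed, so the count is a description.

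By mean level in WT liver the order was Krt8, Krt18, Ly6d, Cd24a, Krt23, Epcam, Krt19, Krt7 and Sox9. From Krt8 down to Krt23 the WT libraries of neighbours in this order did not overlap. Krt23, at 2.21 to 5.22 FPKM, spanned the values of Epcam and those of 1 Krt19 library, and Krt7 spanned 1 library of Sox9, so the lower ranks are not resolved. In WT fat the highest were Cd24a, Krt19 and Ly6d, at means of 3.29, 1.45 and 1.01 FPKM.

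In fat, which the choice of genes did not use, the genotypes were set against each other too. The median difference of all genes was −0.20. Of the 9 genes 3 passed the filter, and none of them changed at an adjusted p under 0.05. By limma 0 of 12149 genes did (0%), and 783 (6.44%) had an unadjusted p under 0.05. Ly6d had 1.06 and 0.958 FPKM in WT against 1.04 and 0.241 in MKRN1-null fat, and differed by −0.34 (standard error 0.29, adjusted p = 0.692). Krt19 had 2.06 and 0.832 FPKM in WT against 2.22 and 1.17 in MKRN1-null fat, and differed by 0.16 (standard error 0.35, adjusted p = 0.854). The genotypes overlapped in both genes, and the sign of Ly6d turned to 0.021 without MKRN1-null fat replicate 2.

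Cd24a had 2.72 and 3.86 FPKM in WT against 5.68 and 83.3 in MKRN1-null fat. Both MKRN1-null libraries lay above both WT libraries, as for 9.03% of all genes tested in fat, and the second was by far the highest. The difference was 2.48 (standard error 1.21, adjusted p = 0.680). Without the library that held skeletal muscle RNA it was 0.65, and without the other MKRN1-null library 4.31 (adjusted p = 0.00223). Without WT fat replicate 2 it was called at an adjusted p of 0.0060. The library with muscle RNA also had 33.7 FPKM of Tspan8, against 0.198 or less in the other fat libraries, and 873 FPKM of Des. The part of the muscle, or of any other tissue in that library, in the Cd24a value was not tested.

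Krt7, Krt8, Krt18, Epcam and Sox9 stayed at 0.252 FPKM or less in every fat library, and Krt23 at 0.914 FPKM or less. The keratins of fat were of another kind. The sum of all keratin genes was 27.4 and 30.4 FPKM in WT against 20.1 and 10.4 in MKRN1-null fat, and Krt8 and Krt18 made up 0.751% of it or less. Of the 49 other keratin genes, Krt10, Krt36, Krt79 and Krt80 passed the filter in fat. Krt79, a type II keratin of skin appendages that neighbours Krt8 on chromosome 15, had 17.4 and 22.7 FPKM in WT against 8.60 and 1.74 in MKRN1-null fat (difference −2.02, unadjusted p = 0.0253 and adjusted p = 0.680 by limma). Krt10, Krt36 and Krt80 differed by −0.14, 0.38 and 0.39 (adjusted p = 0.763, 0.680 and 0.680).

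The genes most like Ly6d over the 8 libraries were sought among 10481 genes tested in liver, by the Pearson correlation of log2(FPKM + 1). The nearest were Ttc39aos1, an antisense transcript gene (r = 0.994), Opa1, of mitochondrial fusion (0.994), Slc35f2, a transporter gene (0.993), Cyp3a44, a cytochrome P450 gene (0.992), and Rad51b, of DNA repair (0.992). All were highest in the 2 WT livers. Rad51b had 17.5 and 10.3 FPKM in WT livers and 1.26 and 0.639 in MKRN1-null livers. Opa1 had 16.4 and 16.1 FPKM in WT livers and 14.1 and 13.8 in MKRN1-null livers, so its pattern was alike but its size was not.

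Nearest to Krt8 were Apcs, the amyloid P component gene, Tm4sf4, a tetraspan gene of hepatocytes, Hsd17b13, a lipid droplet protein gene, Cblc, a ubiquitin ligase gene, and Slc17a4, a urate transporter gene, each at r above 0.999. Apcs had 74.1 and 68.0 FPKM in WT livers and 42.6 and 36.3 in MKRN1-null livers and was listed at 0 in each fat library. Hsd17b13 had 569 and 483 FPKM in WT livers and 265 and 259 in MKRN1-null livers. The points of these correlations are 8 libraries of 2 tissues that share the gap between liver and fat, and the values are a description.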

How the data were processed

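The 8 libraries measure poly(A) RNA in liver or subcutaneous fat. The authors deposited transcript values in FPKM, TPM and coverage, made from mm10 alignments (HISAT2, SAMtools) by StringTie 1.3.3b with a fixed annotation of 36780 transcripts, per the labels and the file headers. Versions of the aligner and of SAMtools were not given in the sources used here, and the paper's methods describe other tools (TopHat2, Cufflinks and HTSeq) and a shorter HFD. The values are not counts, so no count test was run.

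FPKM was summed per gene symbol with Python 3.11.15, numpy 2.4.6 and pandas 2.3.3, and figures were drawn with matplotlib 3.10.9. A gene was tested where at least 2 of the 4 libraries compared had an FPKM of at least 1. Then log2(FPKM + 1) was fitted with limma 3.58.1 in R 4.3.3 (lmFit, eBayes with trend), for MKRN1-null against WT in each tissue and for WT liver against WT fat, and p was adjusted over all genes tested by the Benjamini-Hochberg method at 0.05. All tests are two-sided. Differences on this scale understate the change of scarce genes. Coverage limits the precision of values under about 1 FPKM. With 2 libraries a group, p sets a difference against the spread between these samples. The variance of each gene is drawn towards a trend over all genes. The fits were tested on simulated data.

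The 9 genes and all gene lists were chosen with earlier results of these data known. Named are the 9 genes, up to 4 called genes of each list with the largest differences, the most abundant marker of each cell type and the 5 nearest patterns. Blnk, Sqstm1, Pkhd1, Slc4a2, Cftr, Sctr, Ubb, Hes1, Lgals4, Ttr, Pparg, Cfd, Lipe, Adipoq and the neighbouring genes were named after their values were seen. A few genes of the lists enter the counts but are not reported here singly. Promoter sequences came from RefSeq (GRCm38.p6). Alternatives were TPM, a pseudocount of 0.1, no filter, a filter at 5 FPKM, quantile normalization and median-of-ratios scaling. Others were a single fit of all 8 libraries, the replicate number as a block, the study's limits and leaving out each library in turn. The study's limits stand here for an unadjusted limma p of at most 0.05 and an absolute log2 difference of at least 0.58. The paper set these cutoffs on another p, combined from permutation-based tests of the t statistic and the fold change, so the counts are not those of its method.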

Additional observations from a re-analysis of the deposited data

Results flagged for a closer look

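Cd24a lay below both WT libraries in each MKRN1-null liver and above both WT libraries in each MKRN1-null fat library, so its difference on the log2(FPKM + 1) scale was 4.43 higher in fat than in liver. The difference between the tissues was not tested. MKRN1-null fat replicate 2, at 83.3 FPKM, also held skeletal muscle RNA. Without that library the difference in fat was 0.65.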

How the results depend on the processing

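In liver 1831 genes were lower and 272 higher in MKRN1-null libraries. With TPM 2860 were lower. With all 8 libraries in one fit 163 were lower and 63 higher, and the counts of falls were 0 for the Ly6 family, 0 for filament partners, 1 for Mallory-Denk genes, 3 for bile duct genes, 0 for YAP and TAZ targets and 0 for Notch genes. With a filter at 5 FPKM 1064 genes were lower, with 2 bile duct genes, 3 YAP and TAZ targets and 0 Notch genes. After median-of-ratios scaling 802 were lower and 440 higher, with 2 Ly6 genes, 1 filament partner, 3 Mallory-Denk genes and 0 Notch genes. After quantile normalization 637 were lower, with 1 Ly6 gene, 0 filament partners, 3 Mallory-Denk genes, 3 bile duct genes, 3 YAP and TAZ targets and 0 Notch genes. Without a filter 181 were higher, with falls of 1 filament partner, 3 Mallory-Denk genes and 11 bile duct genes. TPM gave 7 Ly6 genes and 5 filament partners. The study's limits gave 1 Notch gene.

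With 1 library left out, the liver counts ranged from 49 to 1056 lower (49 without MKRN1-null replicate 2, 345 without replicate 1, 419 without WT replicate 1) and from 3 to 225 higher, and for the falls of the lists from 0 to 3 (Ly6), 0 to 4 (partners), 0 to 4 (Mallory-Denk), 1 to 2 (bile duct), 0 to 5 (YAP and TAZ) and 0 to 1 (Notch). The lone library of a genotype is then assumed to vary like the other group. In fat 0 genes were called, against 1 with all 8 libraries, 736 by the study's limits and 3 to 6300 with 1 library left out (6300 without MKRN1-null fat replicate 1, where the muscle library stands alone for its genotype, and 3 without replicate 2). The 10250 genes that differ between WT liver and WT fat ranged from 7234 to 8927 with 1 library left out.

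Groups share replicate numbers 1 and 2, but nothing says that a number marks 1 animal. The correlation of same-numbered replicates' deviations over genes was 0.0062 between WT and MKRN1-null livers, 0.114 in fat and 0.0554 between WT liver and WT fat, over 2 numbers, so the numbers were not taken to pair the samples. With the replicate number as a block, 422 genes were called in fat, Cd24a among them (adjusted p = 4.39e-08), and in liver the Notch count was 0 and no other list count moved by over 1.5 times.

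Ly6d, Krt7, Krt8, Krt18, Krt19, Epcam and Cd24a kept a lower level in MKRN1-null livers in each setting in which they passed the filter. Krt7, Krt19, Epcam and Cd24a passed through the WT livers alone and did not pass when either WT liver was left out. As the genes were chosen by these liver values, the kept sign is a description and no support. Signs turned in liver for Krt23 (0.094 after median-of-ratios scaling, 0.16 after quantile normalization, −0.55 to 0.41 with 1 library left out, 0.0079 without MKRN1-null replicate 2) and Sox9 (0.034, 0.23, −0.30 to 0.13 with 1 library left out, 0.10 without MKRN1-null replicate 2), and in fat for Ly6d (−0.38 to 0.021, the latter without MKRN1-null replicate 2) and Krt19 (−0.21 to 0.53, the former without WT replicate 2, −0.12 without MKRN1-null replicate 1). The cause of these moves was not tested. Genes under about 1 FPKM, such as most duct markers in MKRN1-null livers, are limited by depth.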

Other observations

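Genes of the cell cycle were low in liver and lower in MKRN1-null libraries. The 8 genes followed summed to 7.40 and 9.36 FPKM in WT against 2.51 and 2.22 in MKRN1-null livers, and all 8 were lower in both MKRN1-null livers, an order that 52.8% of the symbols above 0 in a liver shared. Birc5, a mitotic survivin gene, had 1.85 and 2.35 FPKM in WT against 0.905 and 0.748 in MKRN1-null livers (difference −0.76, adjusted p = 0.0252 by limma), and passed the filter through the WT livers alone.

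Cela1, an elastase gene first known from the pancreas, had 10.3 and 13.9 FPKM in WT against 34.5 and 36.3 in MKRN1-null livers and rose by 1.49 (adjusted p = 0.0130 by limma). The other 9 acinar markers gave less than 1 FPKM in sum in each liver, with 7 or 8 of 10 at 0. The adipocyte markers summed to 176 and 175 FPKM in WT against 67.5 and 34.4 in MKRN1-null livers. Cidec fell by 3.63 (adjusted p = 0.0298), Fabp4 by 1.67 (adjusted p = 0.00775) and Pparg by 1.63 (adjusted p = 0.0136), while Cfd differed by 0.37 (adjusted p = 0.735) and Lipe by 0.044 (adjusted p = 0.849). Of the 8 markers 4 (50%) were lower in both MKRN1-null livers, near the 52.8% of all symbols above 0 in a liver. The adipocyte-specific Adipoq had 0.193 and 0.223 FPKM in WT against 0.225 and 0.148 in MKRN1-null livers. Skeletal muscle markers summed to 11.6 to 14.5 FPKM over the 4 livers, and 0 of 11 were lower in both MKRN1-null livers, against the same 52.8%.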
